A study of Mus musculus with 20 samples.

Results

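The genes of the proteasome, the protein complex that degrades ubiquitin-tagged proteins, were taken as the protein-coding genes whose names begin with Psm, followed by a letter from a to g and a digit. Of 22046 protein-coding genes in a table of 54532 genes, 50 met this rule, and 49 of them passed the filter on low counts that left 18362 genes for testing. They comprised 7 alpha subunits of the 20S core, 4 structural beta subunits, 3 constitutive catalytic subunits (Psmb5, Psmb6, Psmb7), 3 immunoproteasome subunits (Psmb8, Psmb9, Psmb10), 6 ATPases and 11 other subunits of the 19S cap, 4 genes of the 11S activators, Psme4 (PA200), the inhibitor Psmf1, and 7 assembly chaperones (Psmg1 to Psmg4, Psmd5, Psmd9, Psmd10). The testis subunit Psma8 and the thymus subunit Psmb11 were also members. So was Psmc3ip, which matched by name alone and encodes a meiotic recombination protein.

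The libraries came from whole spleens of mice aged 4 weeks, either control mice or mice of the gluten-free diet group. The IDs had 2 forms. Plain numbers marked 8 control libraries (1 to 8) and 4 gluten-free ones (7 to 10), and numbers after the letter S marked 3 controls (S1, S2, S6) and 5 libraries of the gluten-free group (S1, S3, S5, S6, S8). What the letter stands for, the strain and the sex are not given in the sources used here, nor is it stated whether each ID is a separate mouse, so p-values measure the spread between these libraries. The spleen was taken whole, so each value is an average over all of its cell types.

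In the 26S proteasome a barrel-shaped 20S core holds the proteases and a 19S cap recognises, unfolds and feeds in the substrates. Lymphocytes and antigen-presenting cells, and other cells after exposure to interferon gamma, build the immunoproteasome, in which Psmb8, Psmb9 and Psmb10 take the places of Psmb5, Psmb6 and Psmb7. It cuts proteins into peptides that fit MHC class I molecules, and Psme1 and Psme2 form PA28, an activator that opens the core. The spleen is rich in lymphocytes, and in young mice it also forms red blood cells, whose precursors depend on protein breakdown as they mature.

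The promoters of the catalytic genes are shown because these genes moved in opposite directions within the plain IDs. Psmb7 is missing, since the promoter source held no entry for it. Sequences are from RefSeq (GRCm38.p6, the build of the counts), read 5′ to 3′ on the strand of the gene, with matches to the searched motifs in capitals. For Psmb10 (chr8:105938445-105938642, minus strand), Psmb5 (chr14:54618023-54618245, minus strand) and Psmb6 (chr11:70525107-70525356, plus strand) the bases among the 250 before the start that lie in no annotated exon are given. The 250 bases of Psmb8 and Psmb9 lie in exons of other annotated transcripts, so 30 bases around the match are given (chr17:34198087-34198116, plus strand, and chr17:34187331-34187360, minus strand). For both genes these bases also lie inside the gene coordinates of the counts (chr17:34197721-34201454 and chr17:34181988-34187764). The start is that of the promoter source, so their matches are not upstream of the whole gene.
Psmb8: gtcctccgctgTTCCCAGAAgatgcccccc
Psmb9: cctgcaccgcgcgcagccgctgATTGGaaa
Psmb10: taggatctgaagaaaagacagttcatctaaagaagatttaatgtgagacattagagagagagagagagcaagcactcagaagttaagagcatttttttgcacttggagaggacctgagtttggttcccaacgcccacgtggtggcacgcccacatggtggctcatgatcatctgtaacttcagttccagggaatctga
Psmb5: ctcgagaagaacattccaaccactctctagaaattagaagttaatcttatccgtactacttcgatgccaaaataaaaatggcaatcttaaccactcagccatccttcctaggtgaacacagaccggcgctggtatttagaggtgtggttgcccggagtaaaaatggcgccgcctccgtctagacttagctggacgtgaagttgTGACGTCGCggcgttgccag
Psmb6: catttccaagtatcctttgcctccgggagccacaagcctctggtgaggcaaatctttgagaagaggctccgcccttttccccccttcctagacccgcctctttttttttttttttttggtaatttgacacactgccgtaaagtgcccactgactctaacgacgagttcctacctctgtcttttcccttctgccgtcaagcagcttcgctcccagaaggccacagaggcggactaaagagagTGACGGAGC
Psmb8 carried the interferon gamma motif GAS (TTCNNNGAA) 97 bases before the start, and Psmb9 a CCAAT box, on the other strand, 8 bases before it. Psmb5 and Psmb6 each carried the antioxidant response element (TGACNNNGC), the motif bound by Nfe2l1, the factor that induces proteasome genes when proteasome activity falls, 47 and 9 bases before the start. Psmb10 held a match to none of the 6 motifs in its 250 bases, which says only that these letters are not in this window.

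Of the 49 genes that encode subunits, activators or chaperones, 41 had a promoter in the RefSeq table, and the shares below are over the 250 bases before the start on both strands. For the members the first promoter listed for each gene was used. The share of all promoters counts every entry, whether or not its gene was tested here, so the sets are unlike. GAS was in 2 of 41 (4.88%, against 7.02% of all 32851 promoters), and the ISRE-like motif GAAANNGAA in 3 (7.32%, against 7.13%). The antioxidant element was in 5 (12.2%, against 10.2%), and the CCAAT box in 14 (34.1%, against 33.9%). The ETS motif CCGGAAG was in 11 (26.8%, against 6.91%), such as Psmc2, Psmd2 and Psme3, and in 0 of the 5 promoters of Psmb8, Psmb9, Psmb10, Psme1 and Psme2. The kB-like motif GGANNTTCC was in 4 (9.76%, against 3.59%). GAS and the kB-like and ISRE-like motifs can share bases.

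Library totals ran from 13626021 to 24268237 counts. In a principal component analysis of all tested genes, control 5 lay with the S libraries on the second component. There the gluten-free plain libraries (-1.22 to 2.95) lay between these and the other plain controls (21.03 to 37.47). On the first component control 8 lay apart from the other plain controls towards the gluten-free plain libraries, and gluten-free S8 lay lowest. The spleen stroma markers were present in every group, among them Tlx1 and Nkx2-5, and pancreas acinar genes, summed, reached 371 CPM in 1 plain control and 4459 in 1 gluten-free S library. The thymus marker Foxn1 was at 0 in every control library and at most 0.169 CPM in the gluten-free ones. The 3 thymus cortex markers that could be tested (Prss16, Ly75 and Ctsl) were called higher in the gluten-free plain libraries (median log2 fold change 0.84). Which cells their RNA came from was not tested. Levels are counts scaled to a common library size (CPM) with TMM scaling, which sets library sizes so that most genes do not shift, and calls were made where the edgeR quasi-likelihood test gave a Benjamini-Hochberg adjusted p under 0.05 over all tested genes.

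Within the plain IDs the immunoproteasome genes rose on the gluten-free diet while the constitutive catalytic genes and nearly all other proteasome genes fell. Of the 49 tested members 4 rose and 40 fell, against 17.5% of all tested genes that rose and 22.1% that fell. The median log2 fold change (gluten-free over control) was -0.49 over the members and 0.03 over all genes. The groups did not overlap for 34 members that were lower and 2 that were higher, 69.4% and 4.08% of the members, against 14.2% and 6.83% of all genes. Scaling by library totals alone raised the median of all genes to 0.31 and left 26 members lower and 6 higher. Relative to the median of all genes 44 of 49 members lay lower, a count that was the same under 4 scalings (TMM, RLE, upper quartile, library totals). Scaling shifts all genes nearly alike, so this count could hardly change and is no check on the scaling.

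**Figure D1:**
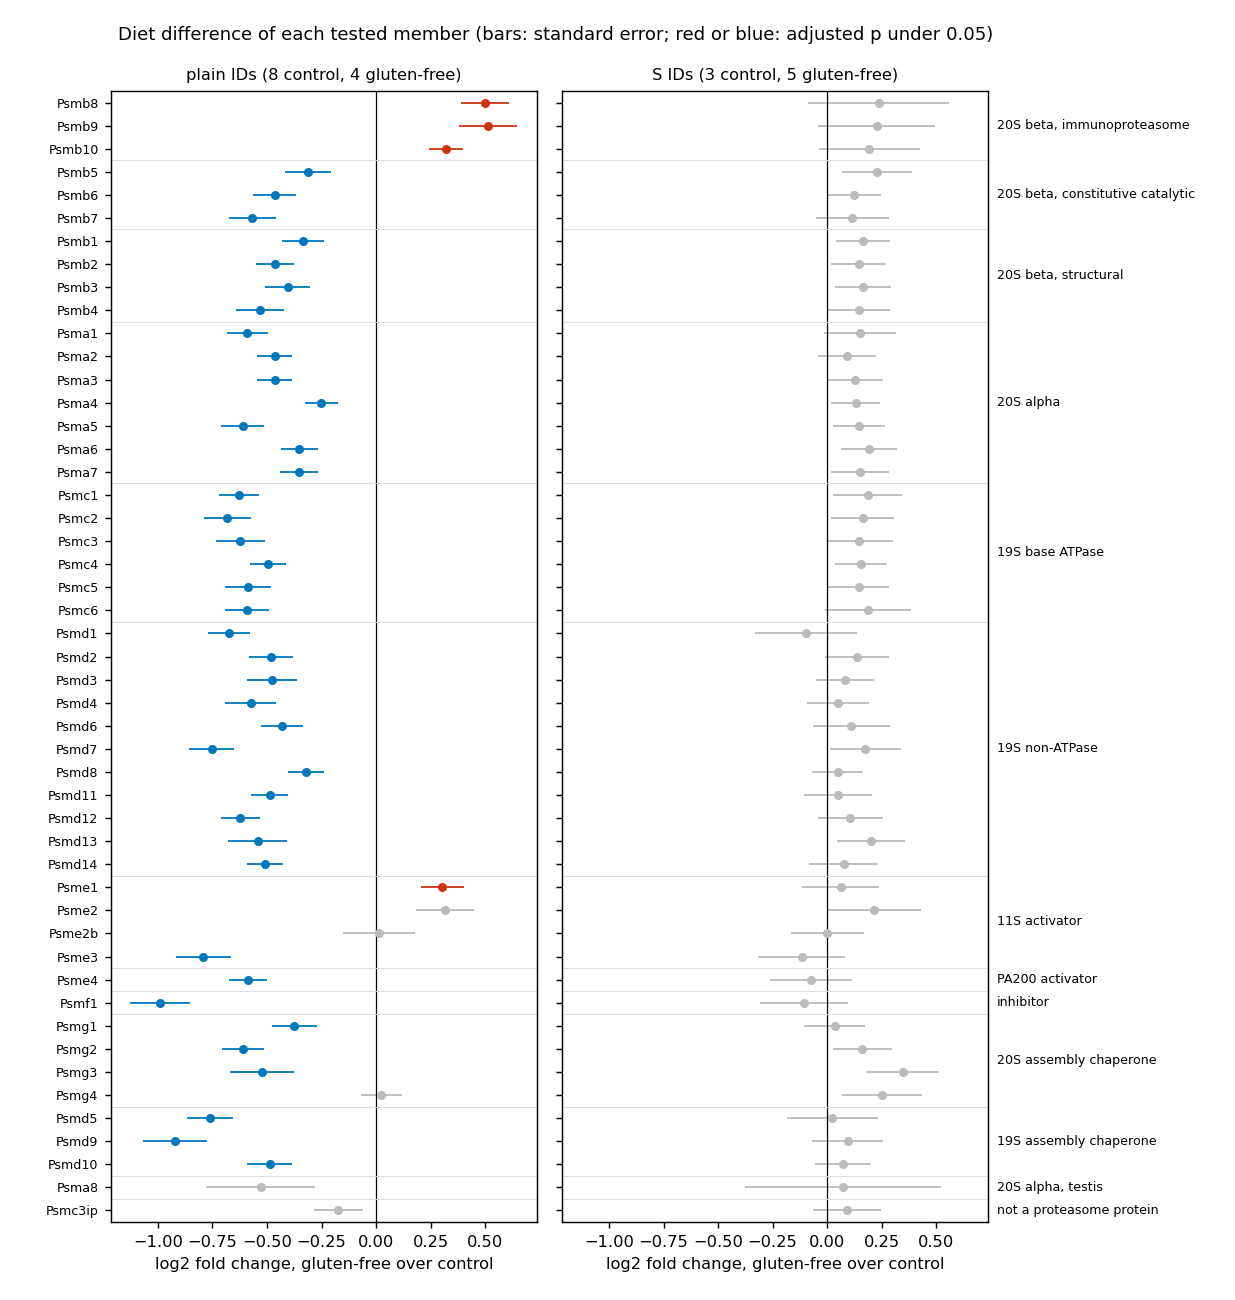
Log2 fold change (gluten-free over control, x axis) of the 49 tested members, ordered by role, in the plain IDs (left) and the S IDs (right), with standard errors as bars and called genes in red (higher) or blue (lower). In the plain IDs 40 members fell and 4 rose under TMM scaling (with library totals alone Psma4 and Psmc3ip turn positive), and in the S IDs none was called.

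Psmb8, the chymotrypsin-like subunit of the immunoproteasome (chr17:34197721-34201454, plus strand), lay between 82.9 and 126 CPM in the plain controls, with a median of 102 CPM. It was at 143, 139.8, 137 and 165 CPM in gluten-free 7, 8, 9 and 10, above every plain control. The log2 fold change was 0.50 ± 0.11 (SE), 1.41-fold (edgeR adjusted p = 0.00188). Psmb9 (chr17:34181988-34187764, minus strand), the subunit that replaces Psmb6 and shares a promoter region with the peptide transporter gene Tap1, lay between 48.3 and 85.5 CPM in the plain controls (median 59.5). In the gluten-free libraries it was at 93.8, 77.5, 82.7 and 101 CPM, and the groups overlapped only through control 8. Its log2 fold change was 0.51 ± 0.13 (SE, edgeR adjusted p = 0.00625). Psmb9 overlaps Tap1 on the opposite strand and Psmb8 overlaps Gm20496, and the strand setting of the counts is not stated.

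Psmb10 (chr8:105935735-105938444, minus strand), the trypsin-like subunit, overlaps no other gene with a mean of at least 10 counts. It lay between 59.7 and 77.2 CPM (median 70.4) in the plain controls and at 82.8, 82.8, 84.1 and 97.1 CPM in the gluten-free libraries, with no overlap. The log2 fold change was 0.32 ± 0.08 (SE, edgeR adjusted p = 0.00454). All 3 calls held with any 1 library left out (edgeR adjusted p at most 0.0120 for Psmb8, 0.0307 for Psmb9 and 0.0285 for Psmb10).

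The constitutive counterparts lay lower. Psmb5 (chr14:54614119-54618022, minus strand) ranged from 49.1 to 70.8 CPM (median 65.7) in the plain controls and was at 46.8, 48.6, 51.6 and 56.4 CPM in the gluten-free libraries. The groups overlapped, and the log2 fold change was -0.31 ± 0.10 (SE, edgeR adjusted p = 0.0254). This call was lost without any 1 of control 3, 4, 6 and 7 and gluten-free 7, 8 and 9 (adjusted p up to 0.0814), under upper quartile scaling (-0.22, edgeR adjusted p = 0.0897), with no expression filter (0.0527) and with library totals (-0.0272, 0.799).

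Psmb6 (chr11:70525367-70527858, plus strand), the caspase-like subunit, ranged from 93.4 to 131 CPM (median 118) in the plain controls and was at 73.4, 84.7, 82.9 and 89.8 CPM in the gluten-free libraries, all below the lowest control. Its log2 fold change was -0.46 ± 0.10 (SE, edgeR adjusted p = 0.00146). Psmb7 (chr2:38588036-38644087, minus strand), which overlaps Nek6 on the other strand, ranged from 54.0 to 82.5 CPM (median 68.6) in the controls and was at 44.4, 45.1, 46.1 and 50.6 CPM in the gluten-free libraries. Again no value overlapped, and the log2 fold change was -0.57 ± 0.11 (SE, edgeR adjusted p = 0.000649).

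**Figure D2:**
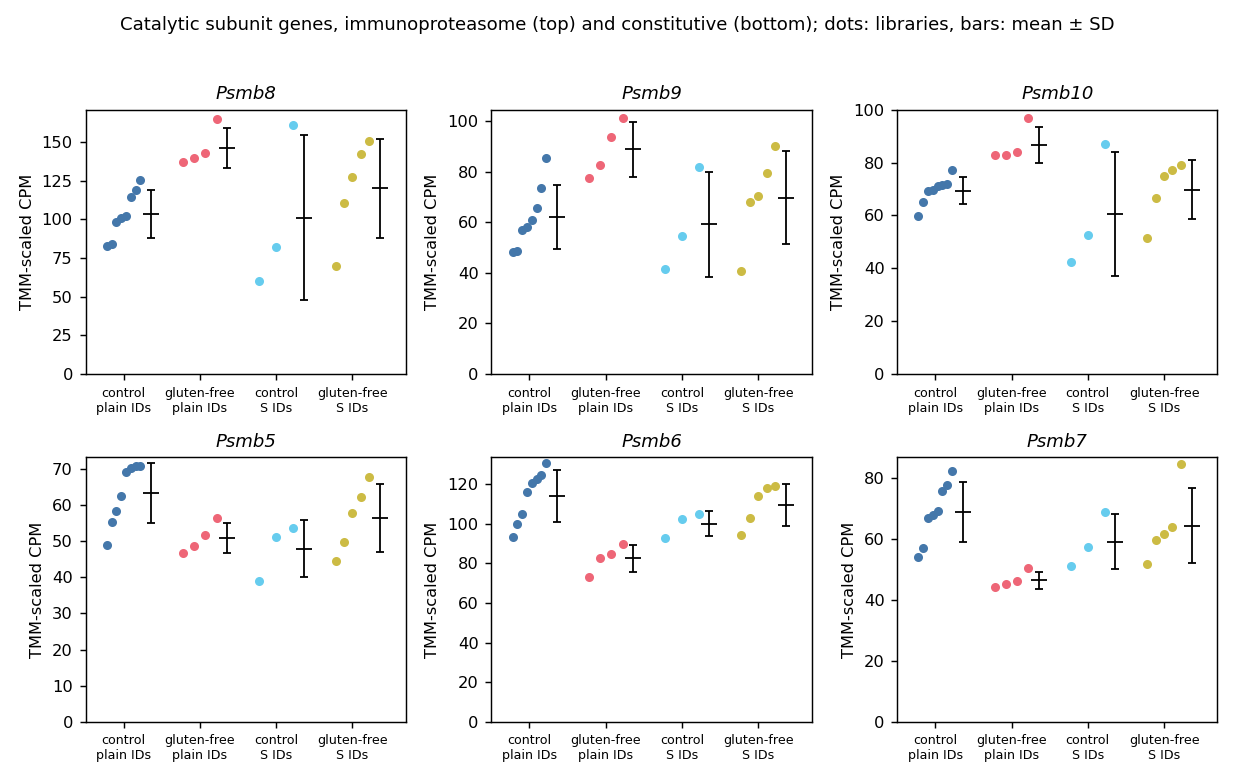
TMM-scaled CPM (y axis, from 0) of the immunoproteasome genes (top) and their constitutive counterparts (bottom) in each library, by diet and ID form, with mean ± SD as bars. In the plain IDs every gluten-free library lies above every control for Psmb8 and Psmb10 and below every control for Psmb6 and Psmb7, while the S groups overlap in all 6 genes.

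The ratio of an immunoproteasome gene to its counterpart in the same library needs no library scaling. Taken per kilobase of the gene length in the table, Psmb8 to Psmb5 lay between 0.385 and 0.843 (median 0.516) in the plain controls, and at 1.00, 0.945, 0.872 and 0.962 in gluten-free 7, 8, 9 and 10. The gluten-free mean was 1.76-fold the control mean on the log scale (log2 difference 0.81), with no overlap. The exact two-sided permutation p was 0.00202, the smallest that 495 splits of 4 and 8 libraries allow, and 0.00909 adjusted over 9 ratio tests. Psmb10 to Psmb7 rose from a median of 1.96 (1.58 to 2.87) to 3.74, 3.68, 3.66 and 3.85, a difference of 0.88 on the log2 scale with the same exact permutation p and adjusted p.

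Psmb9 to Psmb6 rose from a median of 0.251 (0.190 to 0.468) to 0.654, 0.468, 0.511 and 0.577, 1.99-fold (log2 difference 0.99, exact permutation p = 0.00404, 0.0121 adjusted). Gluten-free 8 and control 8 had the same rounded value of 0.468, the former being lower by less than that rounding, so these groups overlapped at that point alone. Over the 6 catalytic genes the immunoproteasome held 33.3 to 48.8% of the counts per kilobase (median 37.2%) in the plain controls and 51.4 to 54.8% (median 52.7%) in the gluten-free plain libraries. The highest control was again control 8.

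**Figure D3:**
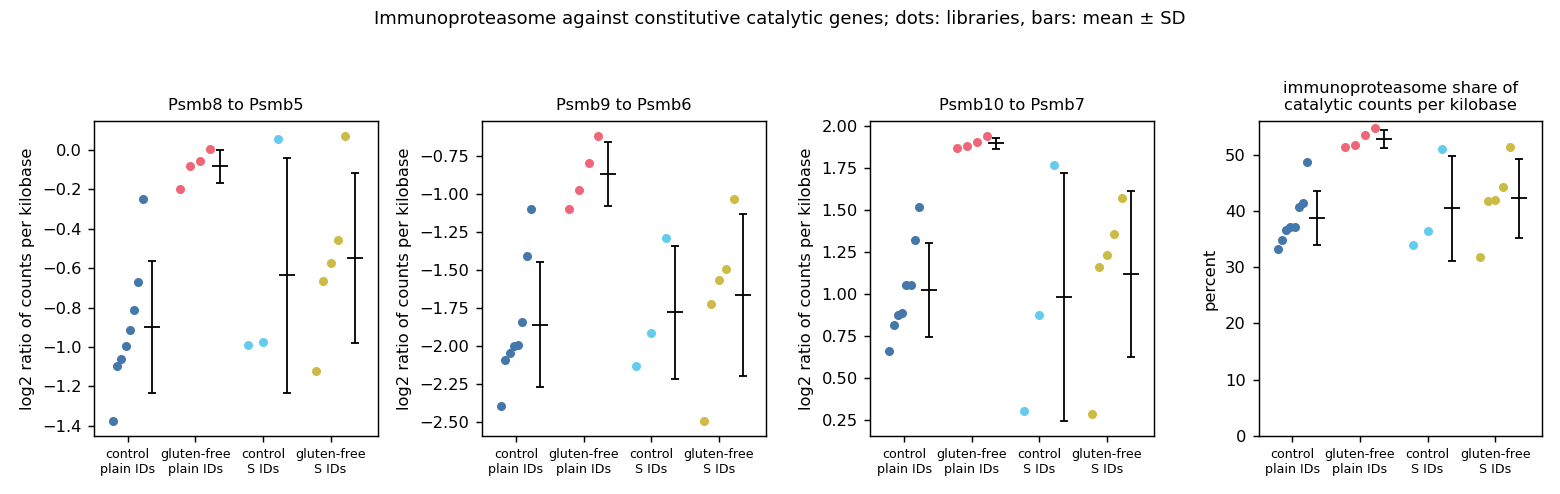
Log2 ratio of counts per kilobase for the 3 pairs (first 3 panels) and the immunoproteasome share of the catalytic counts per kilobase in percent (last panel, axis from 0) in each library, by diet and ID form, with mean ± SD as bars. The gluten-free plain libraries form a narrow high cluster, whereas the S groups overlap each other in every panel.

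The structural members of the core fell together. All 7 alpha subunits, which form the gate rings, and all 4 structural beta subunits were called lower, with log2 fold changes from -0.61 to -0.25 and from -0.53 to -0.34. Psma5 fell most among the alpha subunits, from 74.5 to 103 CPM (median 92.3) in the plain controls to values between 54.4 and 61.8 CPM (log2 fold change -0.61). Psma4 fell least (-0.25 ± 0.08, SE, edgeR adjusted p = 0.0151), its groups overlapped, and it turned to 0.03 under scaling by library totals. Its call was also lost under upper quartile scaling (edgeR adjusted p = 0.0878), with no expression filter (0.0651) and without gluten-free 8 (0.0591). Among the structural beta genes Psmb4 had -0.53 and Psmb1 -0.34. Summed over the 14 constitutive core genes, the level was 1450 to 1946 CPM in the plain controls and 1214 to 1384 CPM in the gluten-free libraries, so that the groups did not overlap.

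The 19S cap fell as a whole as well. All 6 ATPases, which form the ring that unfolds substrates, were called lower (log2 fold changes -0.68 to -0.50) and their groups did not overlap. Psmc2 was lowest at -0.68 ± 0.11 (SE), from 119.9 to 187 CPM (median 146) in the plain controls to 91.7 to 99.0 CPM, and Psmc4 had -0.50 ± 0.08 (SE). All 11 non-ATPase subunits, among them the ubiquitin receptor Psmd4 and the deubiquitinase Psmd14, were called lower, between -0.75 and -0.32. Psmd8 fell least, from a median of 134 CPM to between 96.7 and 111 CPM. Summed over 20 genes, the cap subunits and the cap assembly chaperones Psmd5, Psmd9 and Psmd10, levels were 2046 to 2935 CPM in the plain controls. They were 1651 to 1803 CPM in the gluten-free libraries.

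Activators and the inhibitor split. Psme1 and Psme2 encode the alpha and beta chains of PA28, the interferon-induced activator. Psme1 ranged from 89.7 to 135 CPM (median 112) in the plain controls and was at 131, 144, 139 and 149.6 CPM in the gluten-free libraries, so that the groups overlapped. Its log2 fold change was 0.30 ± 0.10 (SE, edgeR adjusted p = 0.0235), a call lost without gluten-free 8, 9 or 10 (adjusted p up to 0.0752). Psme2 had 66.8 to 124 CPM in the controls and 123, 121, 123 and 131 CPM in the gluten-free libraries, and its 0.32 ± 0.13 (SE) did not pass (edgeR adjusted p = 0.0663), though it did without control 5, 6 or 7 (down to 0.0307). Psme2b, a near-copy of Psme2, had 0.01 and is uncertain, since reads may be split between the copies.

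Psme3, which encodes PA28 gamma, a nuclear activator that interferon does not induce, fell. It ranged from 279 to 478 CPM (median 407) in the plain controls and was at 203, 268, 225 and 223 CPM in the gluten-free libraries, with no overlap and a log2 fold change of -0.79 ± 0.12 (SE, edgeR adjusted p = 0.000142). Psme4, the single-chain activator PA200, lay between 110 and 147 CPM in the controls and at 88.3, 87.5, 89.5 and 89.7 CPM in the gluten-free libraries, and fell by 0.59 on the log2 scale. Psmf1, which encodes PI31, a proteasome binding protein first known as an inhibitor, had the lowest log2 fold change of all members. It ranged from 90.4 to 167 CPM (median 148) in the plain controls, with control 8 far below the rest, and was at 62.3, 83.6, 74.7 and 68.2 CPM in the gluten-free libraries. The log2 fold change was -0.99 ± 0.14 (SE, edgeR adjusted p = 5.25e-05).

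Of the chaperones of core assembly, Psmg1, Psmg2 and Psmg3 fell, Psmg2 most (-0.61, from a median of 62.8 CPM to between 39.4 and 42.8 CPM), and Psmg4 had 0.02 ± 0.09 (SE, edgeR adjusted p = 0.854). All 3 chaperones of cap assembly fell, led by Psmd9. Psmd9 ranged from 44.5 to 76.5 CPM (median 63.2) in the plain controls and was at 28.7, 29.4, 36.9 and 34.3 CPM in the gluten-free libraries, a log2 fold change of -0.92 ± 0.15 (SE). The tissue-restricted members were near the floor of the counts: Psmb11 had 17 counts over the 20 libraries (0 to 3 in each) and was not tested, and Psma8 had 12 to 45 counts in a library and -0.53 (edgeR adjusted p = 0.101). Psmc3ip had -0.17 (adjusted p = 0.235).

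**Figure D4:**
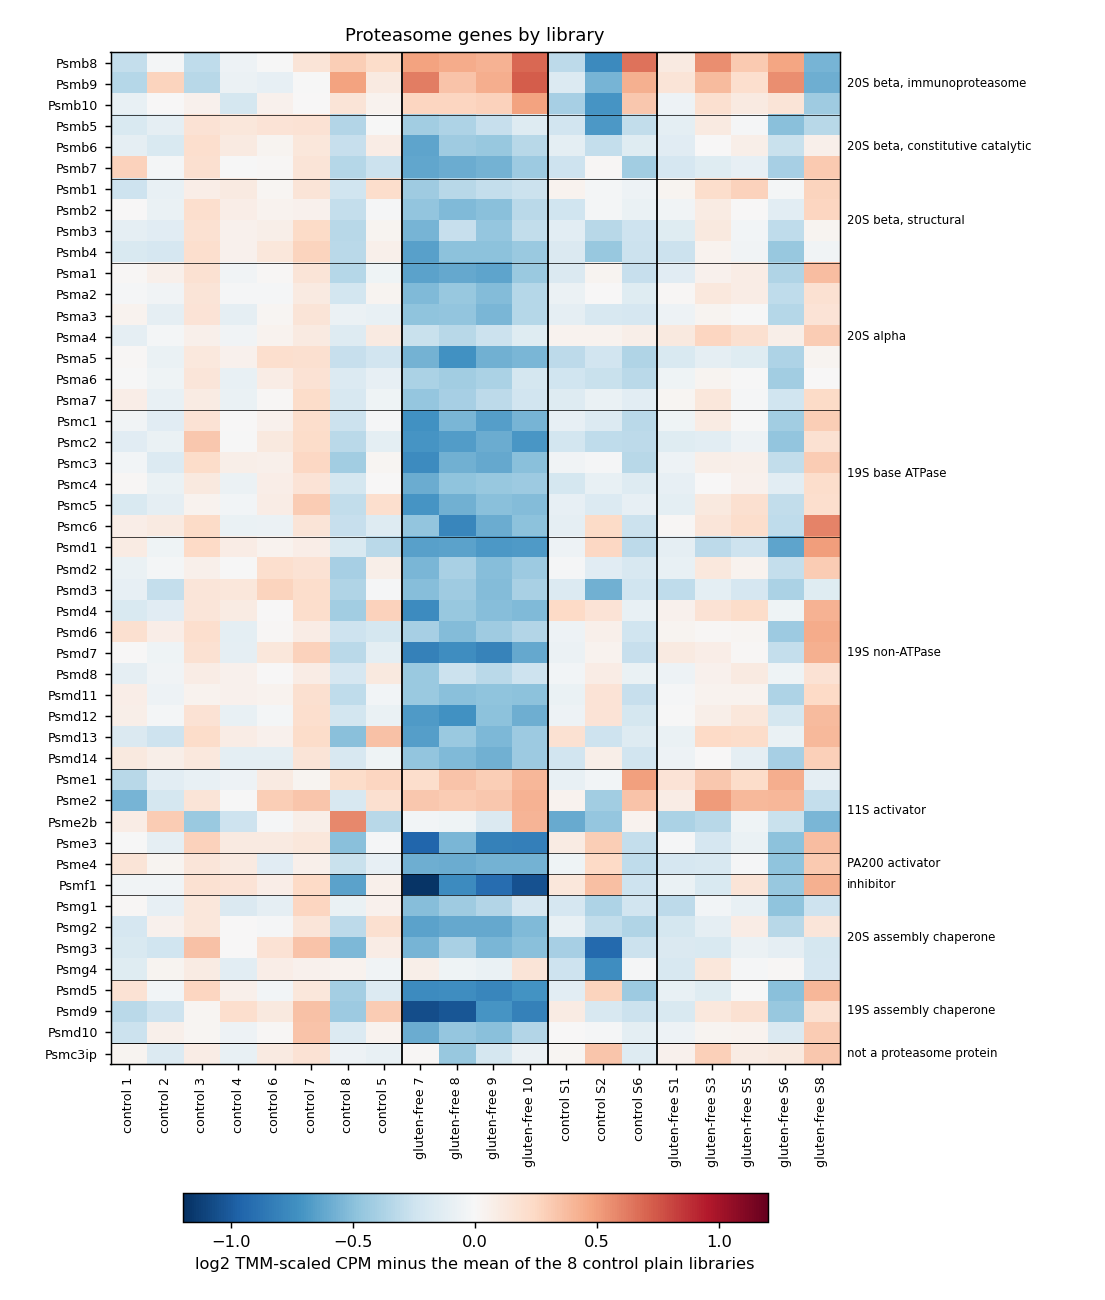
Log2 TMM-scaled CPM of 48 members (rows, by role; Psma8 and Psmb11 left out for low counts) in each library (columns, by diet and ID form), relative to the mean of the 8 plain controls. The 4 gluten-free plain libraries are low in most rows (40 members called lower, 26 under scaling by library totals) and high in Psmb8, Psmb9, Psmb10 and Psme1, control 8 and gluten-free S6 combine high Psmb8 and Psmb9 with low Psmf1, and gluten-free S8 has low immunoproteasome rows with high Psmf1.

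Markers of several cell types moved with this comparison. All 15 erythroid markers were called lower in the gluten-free plain libraries (median log2 fold change -1.37), and their summed level was 39313 to 75910 CPM against 57966 to 137272 CPM in the plain controls, with none at 0. All 12 cell cycle genes were called lower (median -1.18). All 10 T cell markers (median 0.70) and all 10 neutrophil markers (median 1.71) were called higher, as was 1 of 8 B cell markers (median 0.47). In bulk RNA, fewer cells of a type and less RNA per cell cannot be told apart. With the erythroid gene mean added to the model 0 of 49 members were called, against 3.99% of all genes (at an unadjusted p under 0.05, 2 members). Psmb8 then had 0.09 ± 0.22, Psmb10 0.16 ± 0.17 and Psmb9 -0.30 ± 0.22 (SE).

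The libraries with the highest immunoproteasome shares were those with the lowest erythroid and cell cycle sums, across diets and ID forms. The 7 libraries with the lowest erythroid sums, at most 75910 CPM, were the 4 gluten-free plain libraries, control 8, control S6 and gluten-free S6, and they were also the 7 with the highest shares (48.8 to 54.8%). The 13 others, from 79381 CPM upward, had shares of 31.8 to 44.4%. The cell cycle genes set the same 7 libraries apart, at 2374 to 4505 CPM against 6317 CPM or more in the others. Within the 13 the order followed the erythroid sums only in part. Control 3, 4 and S2, at 132449 to 138106 CPM, had shares of 33.3 to 34.9%. Control 2 and gluten-free S1 and S3, at 79381 to 106525 CPM, had 41.5 to 44.4%. Outside this order, gluten-free S8 had the lowest share (31.8%) at 109705 CPM of erythroid genes, and control 1 had 36.7% at 87692 CPM. Control S1 had 36.4% at the highest sum, 145859 CPM. T cell marker sums within the 13 were 576 and 574 CPM in gluten-free S3 and S5 (shares 44.4 and 42.0%). They were 315 and 236 CPM in gluten-free S8 and control S2 (31.8 and 34.0%), and 258 CPM in control S1. B cell marker sums were 2031, 2163, 1200, 1156 and 1439 CPM in these 5 libraries in that order. This is a description, since every value of a library comes from the same counts, and the part of these genes in the diet difference was not tested apart from the erythroid covariate above.

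**Figure D5:**
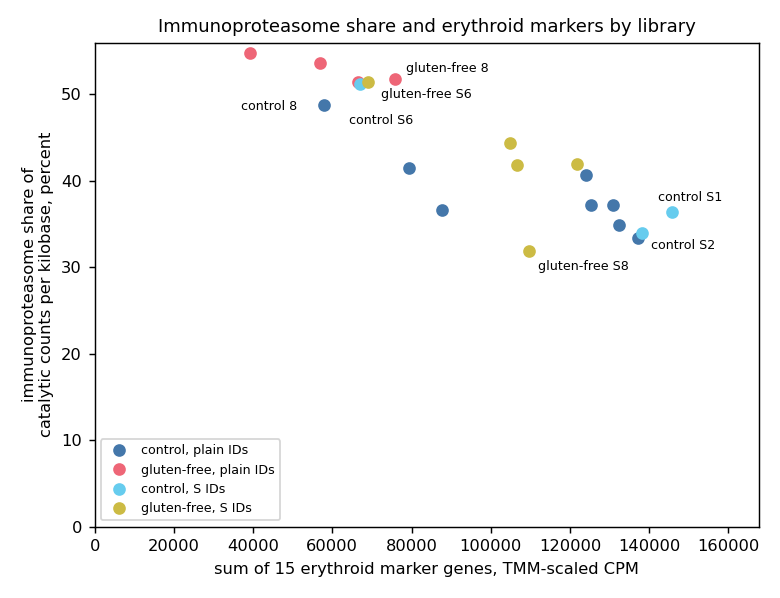
Immunoproteasome share of the catalytic counts per kilobase (y axis, percent, from 0) against the summed TMM-scaled CPM of 15 erythroid marker genes (x axis), 1 dot for each of the 20 libraries, coloured by diet and ID form. Control 8, control S6 and gluten-free S6 lie with the 4 gluten-free plain libraries at low erythroid sums and shares from 48.8%.

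Within the S IDs the diets were not separated for any member. Of the 49 members 0 were called in edgeR, as of all genes (0%), and DESeq2 called 0 members and limma-voom 0. An unadjusted edgeR p under 0.05 was reached by 0 members, against 959 of all 18362 genes. The log2 fold changes lay between -0.12 and 0.35 with a median of 0.14, and 44 of 49 were positive. Psmb8 was at 82.2, 60.3 and 161 CPM in control S1, S2 and S6, and at 111, 150.5, 127, 142 and 69.7 CPM in gluten-free S1, S3, S5, S6 and S8, a log2 fold change of 0.23 ± 0.32 (SE). Psmf1 was at 155, 181 and 119 CPM in those controls and 134, 124, 157, 103 and 189 CPM in the gluten-free libraries (-0.11 ± 0.20, SE). Both groups spanned most of the range, with control S6 and gluten-free S6 high in Psmb8 and low in Psmf1, and control S2 and gluten-free S8 the reverse.

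The pair ratios gave the same picture in the S IDs. Psmb8 to Psmb5 was 0.503, 0.509 and 1.04 in control S1, S2 and S6 and 0.631, 0.730, 0.673, 1.05 and 0.460 in the gluten-free libraries (log2 difference 0.09, exact permutation p = 0.839). Psmb9 to Psmb6 differed by 0.12 and Psmb10 to Psmb7 by 0.14 on the log2 scale (exact permutation p = 0.768 and 0.732; adjusted p = 0.839 for each of the 3). The smallest p that 56 splits allow is 0.0179. The immunoproteasome share was 36.4, 34.0 and 51.1% in the controls and 41.8, 44.4, 42.0, 51.5 and 31.8% in the gluten-free libraries. The erythroid sums overlapped too (66906 to 145859 CPM in the controls and 68989 to 121692 CPM in the gluten-free libraries).

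The diet difference itself differed between the ID forms for most members. In the interaction test 38 of 49 members were called, all with a higher fold change in the S IDs, against 15.4% of all genes called in that direction, and 0 were called in the other. The test uses the libraries of both comparisons above. All 6 ATPases and all 7 alpha subunits passed, and Psmc2 had a difference of 0.85, Psma5 0.76 and Psmf1 0.89 ± 0.25 (SE, edgeR adjusted p = 0.0134). Psmb5 (0.55), Psmb6 (0.60), Psmb7 (0.69) and Psme3 (0.68) passed. The calls of Psmb5 and Psme3 were lost under upper quartile scaling (edgeR adjusted p = 0.0926 and 0.0723) and with several single libraries left out (up to 0.125 and 0.116), that of Psmb5 with no expression filter (0.0622), that of Psmb7 without control S6 (0.0503), and all 4 with library totals (0.0794 to 0.336). Psmb8, Psmb9, Psmb10, Psme1 and Psme2 did not, at -0.25 ± 0.31, -0.28 ± 0.29, -0.12 ± 0.22, -0.23 ± 0.19 and -0.09 ± 0.25 (SE), so a difference between the forms was not shown for them. Scaling by library totals, which put the median of all genes at -0.30, left 14 members called (28.6%, against 21.5% of all genes), all higher in the S IDs. In the same test 12 of 15 erythroid markers (median 1.32) and 12 of 12 cell cycle genes (median 1.25) were called higher in the S IDs and 10 of 10 neutrophil markers lower (median -2.12). With the erythroid covariate 2 members were called (4.08%, against 9.54% of all genes).

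Over both ID forms, with the form as a term, 0 of 49 members were called in edgeR, as of all genes (0%). At an unadjusted edgeR p under 0.05 there were 34 of 49, against 4559 of all 18362 genes. From limma-voom came 0 calls, and DESeq2 called 6, all lower (12.2%, against 8.48% of all genes). Psmf1 had a log2 fold change of -0.62 ± 0.16, Psme3 -0.51 ± 0.14, Psmb8 0.39 ± 0.15, Psmb9 0.40 ± 0.14 and Psmb10 0.27 ± 0.11 (SE; edgeR adjusted p 0.0979 to 0.133). Without control S6 the count was 25 (5 higher, 20 lower, against 20.2% of all genes called), and without gluten-free S8 it was 21 (3 higher, 18 lower, against 15.9%), so that 1 library decided this count.

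The 3 pair ratios, permuted within the ID forms (27720 splits), did pass over both forms. The log2 differences were 0.52 for Psmb8 to Psmb5, 0.64 for Psmb9 to Psmb6 and 0.58 for Psmb10 to Psmb7 (exact permutation adjusted p = 0.0233 for each). They passed within the plain IDs and not within the S IDs. Without control S2 none of the 3 passed (adjusted p 0.0548 to 0.0683), and without control S1 Psmb8 to Psmb5 did not.

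Between the ID forms the control groups showed no called member (0 of 49 in edgeR, against 2.16% of all genes, and 0 in DESeq2), and the gluten-free groups showed many. At an unadjusted edgeR p under 0.05 the control groups had 8 of 49 members. This was about the same share as the 2936 of all 18362 genes. In the gluten-free libraries 33 members were higher in the S than in the plain IDs, against 16.6% of all genes, and 2 were lower, Psmb10 (-0.36 ± 0.13, SE) and Psme2b (-0.40), against 15.4%. Under RLE scaling 0 were lower. The Psmb10 call was lost there (edgeR adjusted p = 0.0677), with no expression filter (0.0732) and with any library but gluten-free S6 left out (up to 0.134). Psmf1 had 0.92 ± 0.17, Psme3 0.67 ± 0.17, Psmb7 0.42 ± 0.13 and Psmb6 0.36 ± 0.11 (SE) and were called. The calls of Psmb6 and Psmb7 were each lost with several single libraries left out (edgeR adjusted p up to 0.0712 and 0.0777). Psmb8 (-0.33 ± 0.18), Psmb9 (-0.40 ± 0.18) and Psmb5 (0.10 ± 0.13, SE) were not. Scaling by library totals, with a median of all genes at -0.37, left 13 higher and 6 lower, 38.8% of the members against 40.4% of all genes, so that the members were then called about as often as any gene. Between these groups 13 of 15 erythroid markers (median 1.32) and 12 of 12 cell cycle genes (median 1.151) were higher in the S IDs and 8 of 10 neutrophil markers lower (median -1.39). With the erythroid covariate 0 members and 0 genes in all were called. The erythroid sums of these groups overlapped little (39313 to 75910 CPM in the plain and 68989 to 121692 CPM in the S libraries). This fit therefore cannot tell the covariate from the ID form well. Without gluten-free 8 or 9 the count was 24 in each case.

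Genes that work with the proteasome were described within the plain IDs, where 17.5% of all tested genes were called higher and 22.1% lower, with a median log2 fold change of 0.03. Of 17 proteasome-associated genes outside the rule, 11 fell and 1 rose (median log2 fold change -0.34). Ubqln2, which carries ubiquitin-tagged proteins to the proteasome, was the gene that rose (0.32), a call lost without gluten-free 8 (edgeR adjusted p = 0.0718). Pomp, the chaperone that builds the core, had -0.26 ± 0.11 (SE, edgeR adjusted p = 0.0673), and Nfe2l1 0.07 ± 0.07 (SE, adjusted p = 0.444).

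Of 12 genes of peptide loading on MHC class I 8 rose and 1 fell (median 0.34). Tap1 and Tap2, the chains of the peptide transporter, had 0.45 ± 0.14 and 0.39 ± 0.12 (SE), and Nlrc5, which switches on class I genes, 0.78 ± 0.23 (SE). Nlrc5 lay between 29.7 and 87.5 CPM (median 39.9) in the plain controls, highest in control 8, and at 95.7, 65.9, 78.5 and 85.4 CPM in the gluten-free libraries. The chaperone gene Canx fell (-0.31), a call lost under upper quartile scaling (edgeR adjusted p = 0.0689), with no expression filter (0.0516), without gluten-free 8 (0.0587) and with library totals (-0.0249). Of 12 genes of interferon gamma signalling 7 rose and 0 fell (median 0.40). Irf1 (0.44 ± 0.16) and Socs1 (0.89 ± 0.15, SE), a feedback inhibitor, were called, and Jak2 had -0.07. The call of Irf1 was lost without control 1 or 7 or gluten-free 7 or 10 (edgeR adjusted p up to 0.125), and that of Tap1 without gluten-free 7 or 10 (up to 0.0623).

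Of 12 genes of ubiquitin and its activation 6 fell and 0 rose (median -0.25). Uchl3, a deubiquitinase, had 0.11. In the S IDs edgeR called 0 genes of these 4 lists (17, 12, 12 and 12 tested genes). There 1 had an unadjusted p under 0.05, against 959 of all 18362 genes. Over both forms edgeR also called 0, and 21 had an unadjusted p under 0.05, against 4559 of all 18362 genes. With the erythroid covariate in the plain IDs 2 genes of the interferon list were called, both lower, and 0 of the other lists.

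Compared per kilobase of gene length, the members differed widely in level. In the plain controls Psme3 was highest with 135 ± 19.98 CPM per kilobase (SD, n = 8), followed by Psmb4 with 95.8, Psmc5 with 95.3 and Psma6 with 91.7. The constitutive catalytic genes were at 70.3 (Psmb5), 61.0 (Psmb6) and 20.2 (Psmb7), and the immunoproteasome genes at 40.7 (Psmb10), 37.8 (Psmb8) and 17.0 (Psmb9). The lowest after Psmb11 and Psma8 (1.019) was Psmg3 with 6.34. Lengths are those of the table and can include exons of long or rare transcripts, so that the order of genes is less certain than the differences between libraries. The coefficient of variation over the 8 plain controls, leaving out Psma8 and Psmb11, ran from 6.35% (Psmg4) to 24.5% (Psme2b). It was 20.2% for Psmb9, 15.03% for Psmb8 and 7.49% for Psmb10.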

How the data were processed

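RNA from whole spleens was sequenced as 20 libraries on an Illumina NovaSeq instrument (RNeasy lipid kit with DNase, per the labels' protocols). The submitters' processing notes name CASAVA, HISAT2 2.0.5, featureCounts 1.5.0, GRCm38 and mm10, and the authors deposited a table of raw counts per gene, with gene lengths. The strand setting is not given in the sources used here. Diet and ID form were read from the sample titles.

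Counts were tested with edgeR 4.0.16 (R 4.3.3, TMM scaling, filterByExpr, quasi-likelihood test) over all 18362 genes that passed, with Benjamini-Hochberg adjusted p under 0.05 as the call. Each diet comparison used its own libraries, the interaction all 20. limma 3.58.1 and DESeq2 1.42.0 were alternatives, beside other scalings, filters, an erythroid covariate and leaving out each library; scaling by library totals was added after seeing the data. Ratios of counts per kilobase were tested by exact permutation in Python 3.11.15 with numpy 2.4.6. The script was tested on simulated data. No 2 libraries of a group agreed within sampling noise (chi-square per degree of freedom 6.10 to 106). The genes named were Psmb5 to Psmb10, Psme1 to Psme4, Psmf1, Nfe2l1, Nlrc5, Irf1, Tap1, Tap2, Pomp, the tissue-restricted members, and in each role class or list the tested genes with the highest and lowest log2 fold change in the plain IDs; some genes this rule names are not reported here. Members and lists were chosen with earlier results of these data known.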

Additional observations from a re-analysis of the deposited data

Results flagged for a closer look

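Of 78 tests for a library far from the rest of its group, 2 found one, where chance gives about 1 in 20. Psmf1 lay at 90.4 CPM in control 8, far below the other plain controls, and Psmb10 at 97.1 CPM in gluten-free 10, above the other gluten-free plain libraries.

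For 15 named members the diet difference itself differed between the ID forms, by the edgeR interaction test (log2 fold change in the S IDs minus that in the plain IDs, adjusted p under 0.05). The difference was 0.55 for Psmb5, 0.60 for Psmb6 and 0.69 for Psmb7. Among other core genes it was 0.39 for Psma4, 0.76 for Psma5, 0.51 for Psmb1 and 0.68 for Psmb4. In the cap and its chaperone it was 0.85 for Psmc2, 0.66 for Psmc4, 0.38 for Psmd8 and 1.023 for Psmd9. For the activators and Psmf1 it was 0.68 for Psme3, 0.52 for Psme4 and 0.89 for Psmf1, and for the core chaperone Psmg2 it was 0.78. The erythroid markers differed in the same way (12 of 15 called, median 1.32), and their part in these differences was not tested apart from the covariate described below.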

How the results depend on the processing

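With the erythroid covariate the called members fell to 0 in the plain IDs, 2 in the interaction and 0 between the gluten-free ID forms, while 3.99%, 9.54% and 0% of all genes were called. Signs were followed here only for genes of the naming rule, and outside the plain IDs only for Psmb5 to Psmb10, Psme1 to Psme3 and Psmf1. Other members turned sign in the plain IDs too, such as Psmg3 (0.35), Psmd13 (0.24) and Psme2b (-0.79). In the plain IDs the log2 fold changes of genes of that rule that turned sign were then -0.30 for Psmb9, 0.26 for Psmb5, 0.10 for Psmb6, 0.0823 for Psme3, 0.0359 for Psmf1, 0.0586 for Psmb1, 0.0887 for Psmb4, 0.0423 for Psmd8, -0.0702 for Psmg4, -0.83 for Nlrc5, -0.74 for Irf1, -0.46 for Tap1, -0.0126 for Tap2, 0.30 for Pomp and -0.0206 for Uchl3. Over both forms they were -0.0199 for Psmb9, 0.13 for Psmb5, 0.0456 for Psmb6, 0.10 for Psmb7 and -0.00292 for Psme1. In the interaction they were 0.71 for Psmb8, 0.68 for Psmb9, 0.46 for Psmb10, 0.19 for Psme1, 0.19 for Psme2 and -0.12 for Psme3. Between the gluten-free ID forms they were 0.20 for Psmb8, 0.315 for Psmb9, -0.11 for Psmb5, -0.10 for Psmb7, 0.0857 for Psme1, 0.18 for Psme2 and -0.0661 for Psme3. The cause was not tested. The covariate itself differed between the diets in the plain IDs, and between the ID forms in the gluten-free group.

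Scaling by library totals left 14 members called in the interaction and 19 between the gluten-free ID forms. It turned Psmb5 to 0.0721 over both forms and to -0.17 between the gluten-free forms, and in the plain IDs Psma4 to 0.0298, Psmc3ip to 0.11, Pomp to 0.0234 and Jak2 to 0.20. Psma6, Psmd3 and Psmg1 turned sign too between the gluten-free forms, as did Psmc3ip and Psmg4 in the interaction. Upper quartile scaling turned Jak2 to 0.0171. DESeq2 called 6 members over both forms.

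The IDs 7, 8, S1 and S6 occur in both diets, but the samples share only a number: deviations of same-numbered libraries correlated at -0.17, -0.20, 0.09 and 0.38, and 2 of 4 controls correlated best with their own number. The fit with this number as a replicate block kept only the libraries of these IDs, 2 pairs in each form, and left out all others. It therefore cannot tell the block from the loss of libraries. In it 0 members were called in the plain IDs (38 of all genes), 0 in the S IDs (103 of all genes) and 0 over both forms, with Jak2 at 0.0040 in the plain IDs and Psmb5 at -0.0410 and Psmb6 at -0.0669 in the S IDs. The paired ratio differences for Psmb8, Psmb9 and Psmb10 were 0.54, 0.69 and 0.69 in the plain IDs and 0.36, 0.50 and 0.37 over both forms. The smallest exact permutation p that the pairs allow is 0.5 and 0.125. In the plain IDs Psmb8 and Psmb10 were at this smallest p and Psmb9 was not. Over both forms Psmb8 was at 0.125, and Psmb9 and Psmb10 were at 0.25 (exact permutation).

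With each library left out in turn, members called ranged from 41 to 45 in the plain IDs, from 29 to 40 in the interaction, from 24 to 41 between the gluten-free forms, from 0 to 25 over both forms and from 0 to 1 between the control forms, and stayed at 0 in the S IDs. Psmg4 in the plain IDs ranged from -0.0207 to 0.0593. In the S IDs Psmb8 ranged from -0.0214 to 0.75, Psmb10 from -2.89e-06 to 0.56, Psme1 from -0.0355 to 0.28, Psme3 from -0.26 to 0.0277 and Psmf1 from -0.25 to 0.0497. In the interaction Psmb8 ranged from -0.52 to 0.25, Psmb9 from -0.48 to 0.0286, Psmb10 from -0.32 to 0.24 and Psme2 from -0.27 to 0.10. The ratios in the S IDs ranged from -0.0880 to 0.43 for Psmb8 to Psmb5, from -0.0614 to 0.36 for Psmb9 to Psmb6 and from -0.20 to 0.53 for Psmb10 to Psmb7. Over both forms they ranged from 0.47 to 0.67, from 0.57 to 0.76 and from 0.48 to 0.75. Over all alternatives 122 counts equalled the value reported or stayed within 1.5 times of it, and 10 did not. Many of the 122 were 0 against 0, in the S IDs, over both forms and between the control forms, and say nothing about the counts above 0. Depth was not limiting except for Psma8 and Psmb11.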
